A study of Homo sapiens with 17 samples.

Results

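The enzymes at the start of cholesterol synthesis, ACAT2, HMGCS1, MVD and IDI1, were followed by gene symbol across 17 human breast cell arrays. Each of these 4 genes of the 17687 measured was read by 1 probe set, a group of probes on the array that together give 1 signal. The values are log2 signals, so a difference of 1 is a 2-fold difference on the array's scale. In MDA-MB-231, a triple-negative breast cancer line with mesenchymal features, 2 arrays each were made for DZH_2 at IC20, DZH_2 at IC50, Maraviroc at IC20, Maraviroc at IC50, DMSO alone and ethanol alone, and 1 array was made of untreated cells. A further 4 arrays titled MCF10, the name of a non-tumorigenic mammary epithelial line, held 1 array each of DZH_2 at IC20, DZH_2 at IC50, DMSO alone and untreated cells. Maraviroc is a drug used against HIV, and DZH_2 is known here only by its code. IC20 and IC50 are the concentrations giving 20% and 50% inhibition. The sources used here do not give their molar values, so matched doses are matched in inhibition and not in concentration. Cells grew for 24 h before 48 h with a compound. For the untreated arrays no time beyond the 24 h is recorded here, so comparisons with them may not be matched in culture time. Per the labels DMSO is the solvent of DZH_2 and ethanol that of Maraviroc, and both doses of a compound are set against the same solvent arrays. The labels do not say that replicates came from separate cultures, so standard errors and p-values measure the spread between arrays, which may be technical.

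The mevalonate pathway builds isoprenoids and cholesterol from acetyl-CoA. ACAT2, the cytosolic acetoacetyl-CoA thiolase (not the sterol acyltransferase that has shared this name), joins acetyl-CoA units, and HMGCS1, the cytosolic HMG-CoA synthase, adds another to give HMG-CoA. Later in the pathway MVD, mevalonate diphosphate decarboxylase, makes isopentenyl diphosphate, and IDI1 converts that into its isomer dimethylallyl diphosphate. The genes of the pathway are known targets of SREBP-2, a transcription factor that is activated when sterols are scarce and that commonly binds beside the CCAAT-binding factor NF-Y.

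In RefSeq (GRCh38.p14) ACAT2 lies on chromosome 6 at 159762045 to 159779112, HMGCS1 on chromosome 5 at 43287470 to 43313412, MVD on chromosome 16 at 88651940 to 88663091, and IDI1 on chromosome 10 at 1039152 to 1056704. Promoter windows were matched for 3 of the 4 genes. They are shown because these genes were high together in DZH_2-treated cells, and each holds 250 bases before a RefSeq transcription start, on the minus strand, read 5′ to 3′. Capitals mark CCAAT or its reverse complement ATTGG, the letters that NF-Y is known to recognise.
HMGCS1 chr5:43313413-43313662: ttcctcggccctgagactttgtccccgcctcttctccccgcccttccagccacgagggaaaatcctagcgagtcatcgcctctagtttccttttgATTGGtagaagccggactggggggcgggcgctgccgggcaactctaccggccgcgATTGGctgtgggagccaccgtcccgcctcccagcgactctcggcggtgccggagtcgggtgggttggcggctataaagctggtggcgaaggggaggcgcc
MVD chr16:88663092-88663341: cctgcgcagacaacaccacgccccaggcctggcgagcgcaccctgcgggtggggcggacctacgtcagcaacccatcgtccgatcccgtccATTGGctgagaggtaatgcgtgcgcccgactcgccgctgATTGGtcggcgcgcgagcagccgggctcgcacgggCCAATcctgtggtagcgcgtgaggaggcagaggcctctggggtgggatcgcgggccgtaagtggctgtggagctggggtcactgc
IDI1 chr10:1049120-1049369: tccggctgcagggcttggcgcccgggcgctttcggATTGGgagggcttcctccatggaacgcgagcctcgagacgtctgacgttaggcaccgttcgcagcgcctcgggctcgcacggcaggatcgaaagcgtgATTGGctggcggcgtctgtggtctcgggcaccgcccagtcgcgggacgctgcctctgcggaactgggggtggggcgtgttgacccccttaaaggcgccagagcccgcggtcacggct
CCAAT was searched on both strands. The HMGCS1 window held 2 matches, at -155 and -100 from the start, and the MVD window held 3, at -159, -120 and -85. The IDI1 window shown held 2, at -215 and -117. Of all 35116 windows of this length, 32.0% held at least 1 match, 9.53% at least 2 and 2.93% at least 3. The choice of start matters: a second HMGCS1 window, at 43313182 to 43313431, held 0, while of the other IDI1 windows the one at 1056705 to 1056954 held 0 and the one at 1048887 to 1049136 held 3, of which 2 overlap. The letters GGGCGG, an Sp1-type box, were found in each of these windows and in 42.6% of all windows. TCACNCCAC, a sterol-element pattern, was in none of the members' windows and in 0.883% of all, and its inner part CACNCCAC was found 1 time, in the IDI1 window at 1048887, against 4.87% of all windows. A match of letters describes the sequence and shows no binding.

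Array quality differed in ways that touch these genes. Among the 612 negative control probe sets the 75th percentile, used here as the floor, lay at 5.64 to 6.46 on the MDA-MB-231 arrays and was highest on the 2 Maraviroc IC50 arrays, whose SD between replicates over all genes was 0.546, against 0.277 to 0.366 in the other groups. The arrays titled MCF10 carry MDA-MB-231 in their cell line field. Their control arrays were at least 1 above those of MDA-MB-231 in 4 of 5 basal mammary markers (S100A2 by 8.29, ITGB4 by 4.83) and lower in 5 of 6 mesenchymal markers, but 5 of 6 epithelial markers (CDH1, EPCAM, CLDN1, ESRP1, OVOL1) were below the floor and 3 of 7 stromal markers (DCN, FBLN1 and MMP2) were higher by 4.87, 8.66 and 9.09. The MDA-MB-231 control means of DCN, FBLN1 and MMP2 were below the floor, so these sizes are not exact. The other stromal markers differed by less than 1. They are therefore called the arrays titled MCF10, with the line unsettled. On the MDA-MB-231 control arrays the 4 luminal markers averaged 4.64 (ESR1), 4.37 (PGR), 6.15 (GATA3) and 7.58 (FOXA1), and the 3 leukocyte markers 5.72 (PTPRC), 5.98 (CD3E) and 13.89 (CD68). The arrays read RNA from whole cultures, so fewer cells of a kind and less RNA per cell cannot be told apart.

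The 4 genes were chosen by their measured differences between treated and solvent cells, which were already known. Those differences are therefore described without a test, each with the standard error that limma gives from 1 spread per gene over the 12 replicated MDA-MB-231 arrays.

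With DZH_2, all 4 enzymes were higher than in DMSO at both doses, most of all HMGCS1. HMGCS1 read 12.44 and 12.56 at DZH_2 IC20 and 12.67 and 12.92 at IC50, against 8.09 and 7.97 in DMSO. The 4 treated arrays lay close together, far above both solvent arrays. The differences were 4.47 ± 0.35 at IC20 and 4.76 ± 0.35 at IC50 (SE, 2 arrays per group), or 22.1-fold and 27.1-fold, and at each dose HMGCS1 had the highest difference of all 17687 genes. This enzyme feeds the pathway with HMG-CoA.

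IDI1, which supplies the activated isoprene unit for chain building, came second among the members. Its signal was 13.06 and 12.74 at DZH_2 IC20 and 12.84 and 13.50 at IC50, against 9.93 and 10.35 in DMSO. Every treated array exceeded both DMSO arrays by more than 2. The differences of 2.76 ± 0.51 and 3.03 ± 0.51 placed IDI1 at rank 10 at IC20 and rank 9 at IC50 from the highest.

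MVD, the decarboxylase upstream of IDI1, read 8.72 and 9.28 at DZH_2 IC20 and 9.37 and 9.38 at IC50, against 7.15 and 7.55 in DMSO. All treated arrays stood above all DMSO arrays, with differences of 1.65 ± 0.28 and 2.02 ± 0.28 (rank 73 and rank 36). ACAT2, the entry thiolase, gave the lowest difference of the 4: it read 10.74 and 10.44 at IC20 and 10.48 and 11.02 at IC50, against 9.54 and 9.06 in DMSO. Again the groups did not overlap. Its differences were 1.29 ± 0.32 and 1.45 ± 0.32 (rank 180 and rank 116).

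Both treated arrays lay above both DMSO arrays in 4 of 4 members at each DZH_2 dose, where 22.7% of all genes did so at IC20 and 26.5% at IC50. The median difference of the members was 2.21 at IC20 and 2.53 at IC50, beside -0.0022 and 0.038 over all genes. Since this contrast was known when the genes were picked, these shares are background only. Leaving out any 1 array kept the HMGCS1 difference between 4.41 and 4.89 and the ACAT2 difference between 1.05 and 1.72.

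**Figure D1:**
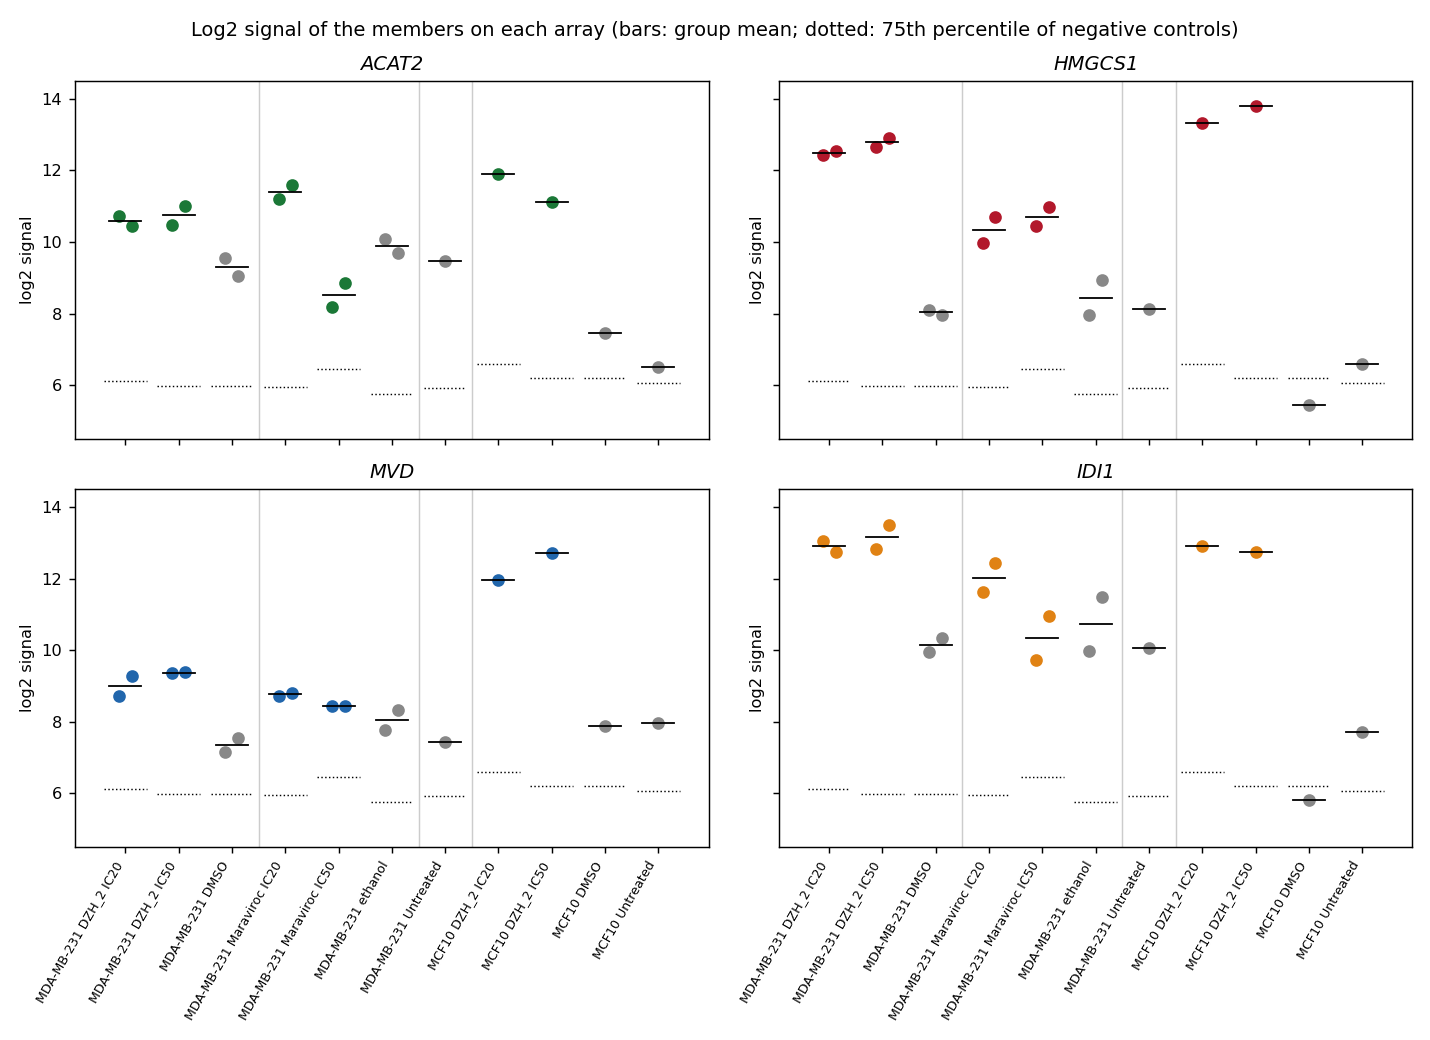
Log2 signal of ACAT2, HMGCS1, MVD and IDI1 (y axis) on each of the 17 arrays, by group (x axis), with points for arrays, black bars for group means and dotted lines for the 75th percentile of the negative controls. In MDA-MB-231 all DZH_2 points stand above the DMSO points for each gene, while ACAT2 at Maraviroc IC50 (8.18 and 8.86) lies below both ethanol points.

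With Maraviroc at IC20 the same 4 enzymes were above ethanol, by smaller amounts for HMGCS1, MVD and IDI1 and by a similar amount for ACAT2. HMGCS1 read 9.98 and 10.69, against 7.97 and 8.92 in ethanol. ACAT2 read 11.21 and 11.60, against 10.08 and 9.68. The Maraviroc IC20 arrays of both genes were clear of the ethanol arrays, and ACAT2 was higher there than on any other MDA-MB-231 array.

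MVD read 8.73 and 8.80 at Maraviroc IC20, against 7.77 and 8.31 in ethanol. IDI1 read 11.62 and 12.43, against 9.97 and 11.49 in ethanol. Its lower treated array was only slightly above the higher ethanol array. The differences were 1.89 ± 0.35 for HMGCS1 (rank 3 of all genes), 1.53 ± 0.32 for ACAT2 (rank 7), 0.72 ± 0.28 for MVD (rank 165) and 1.29 ± 0.51 for IDI1 (rank 15). All 4 genes had both arrays above both ethanol arrays, as did 15.2% of all genes. The median over the members was 1.41, beside -0.0090 over all genes.

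The ethanol replicates were uneven for this pathway. Replicate 2 minus replicate 1 was 0.96 for HMGCS1, 0.54 for MVD, 1.52 for IDI1 and -0.40 for ACAT2. Without ethanol replicate 1 the IDI1 difference at Maraviroc IC20 was 0.53, and without ethanol replicate 2 it was 2.05. For MVD the corresponding values were 0.45 and 0.99, and for HMGCS1 1.41 and 2.37. All 4 differences kept their direction without any 1 array.

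At Maraviroc IC50 the members parted. HMGCS1 stayed high at 10.43 and 10.99, while ACAT2, with 8.18 and 8.86, was below both ethanol arrays. MVD read 8.45 and 8.43, just above ethanol, and IDI1 read 9.72 and 10.94, which overlaps the ethanol arrays. The differences from ethanol were 2.27 ± 0.35 for HMGCS1 (rank 202), -1.36 ± 0.32 for ACAT2, 0.40 ± 0.28 for MVD and -0.41 ± 0.51 for IDI1.

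Thus 2 of 4 members, HMGCS1 and MVD, had both IC50 arrays above both ethanol arrays (32.1% of all genes), and 1, ACAT2, had both below (25.7% of all genes). The median over the members was -0.0043, beside 0.11 over all genes. ACAT2 was above ethanol on both IC20 arrays and below it on both IC50 arrays, an order found in 500 genes, or 2.83% of those measured. The IDI1 difference ranged from -1.16 without ethanol replicate 1 to 0.35 without ethanol replicate 2, and was 0.21 without Maraviroc IC50 replicate 1, so its direction rests on single arrays. The MVD difference was 0.13 without ethanol replicate 1 and 0.67 without ethanol replicate 2.

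Set beside each other at matched inhibition, the differences from solvent were larger with DZH_2 than with Maraviroc for most members. DZH_2 minus Maraviroc came to 2.58 ± 0.49 for HMGCS1, 0.93 ± 0.40 for MVD and 1.47 ± 0.72 for IDI1 at IC20. For ACAT2 at IC20 it was -0.23 ± 0.46, less than its standard error. At IC50 it was 2.49 ± 0.49 for HMGCS1, 2.81 ± 0.46 for ACAT2, 1.63 ± 0.40 for MVD and 3.44 ± 0.72 for IDI1. These values rest on contrasts known beforehand and on different solvents, and no test is given.

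**Figure D2:**
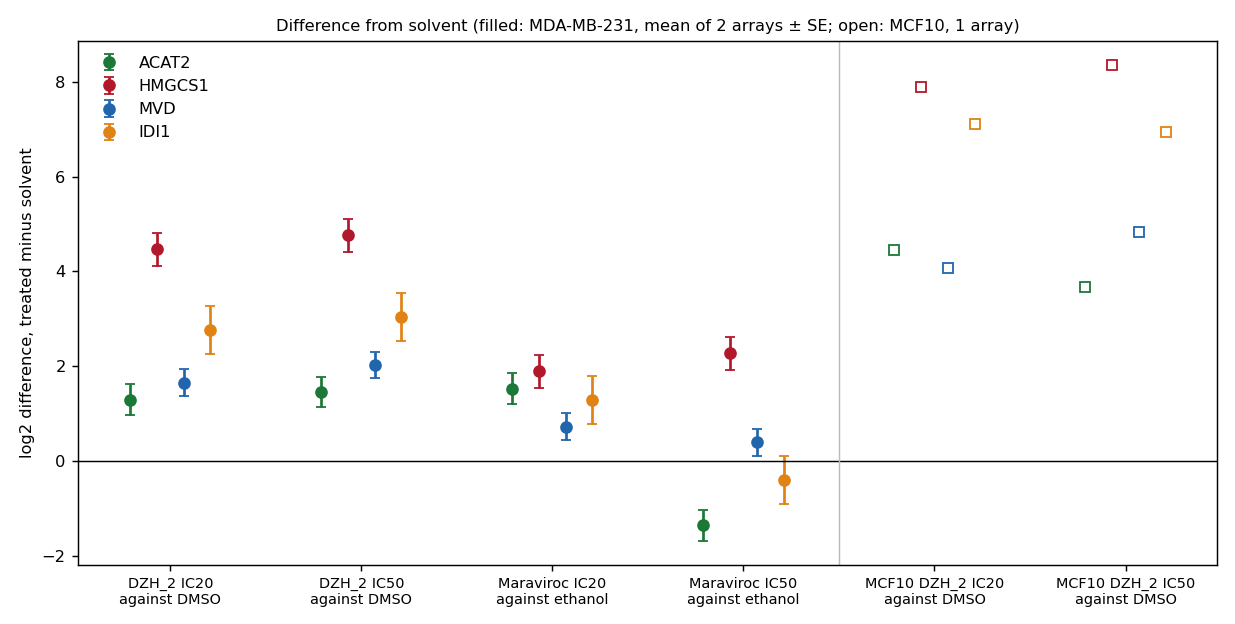
Log2 difference of treated minus solvent cells (y axis) for the 4 enzymes in each comparison (x axis). Filled circles are MDA-MB-231 means of 2 arrays with the SE, and open squares are single arrays titled MCF10. In MDA-MB-231 HMGCS1 is highest in each comparison and ACAT2 is at -1.36 with Maraviroc IC50, while the open squares of HMGCS1 and IDI1 rest on a DMSO signal below the floor and have no exact height.

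The step from IC20 to IC50 within a compound was tested with limma. Benjamini-Hochberg adjustment ran over all 17687 genes, with a call at adjusted p under 0.05. The step equals the IC50 difference from solvent minus the IC20 difference, and both were known when the genes were picked. Its p-values therefore describe values already seen and are no independent test of the members. With Maraviroc 2 of the 4 members were lower at IC50 than at IC20. ACAT2 fell by 2.89 on the log2 scale (SE 0.32, limma adjusted p = 4.78e-05), which is 7.39-fold lower at IC50 than at IC20. IDI1 fell by 1.70 (SE 0.51, limma adjusted p = 0.0249), or 3.24-fold lower. Both IC50 arrays lay below both IC20 arrays for ACAT2, IDI1 and MVD, 3 of 4 members, and for 26.2% of all genes.

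HMGCS1 and MVD did not pass. The HMGCS1 step with Maraviroc was 0.38 (95% interval -0.38 to 1.14, limma adjusted p = 0.479) and the MVD step was -0.32 (95% interval -0.94 to 0.29, limma adjusted p = 0.449). Of all genes 26.7% were called in this step, with 14.8% lower, so ACAT2 and IDI1 are among 2610 genes called lower. The ACAT2 call held in all alternatives run, with values from -3.22 to -2.55 when 1 array was left out. The IDI1 call was lost without Maraviroc IC50 replicate 1 (-1.09), without Maraviroc IC20 replicate 2 (-1.29), with array weights and with a fit to the compared arrays alone.

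DZH_2 gave no called step, although all 4 differences were above 0. Its IC50 minus IC20 differences were 0.16 for ACAT2 (95% interval -0.54 to 0.86), 0.29 for HMGCS1 (-0.47 to 1.05), 0.37 for MVD (-0.24 to 0.99) and 0.27 for IDI1 (-0.82 to 1.37), each with limma adjusted p = 0.999. By limma 0 of 4 members and 0% of all genes were called. For HMGCS1 and MVD the arrays of IC50 and IC20 were apart by only 0.11 and 0.09, from which nothing is read. The share of all genes without overlap in this step is not given. At an unadjusted p under 0.05 there were 0 members and 721 genes. The widest interval, that of IDI1, still allows a step of 0.82 down or 1.37 up.

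**Figure D3:**
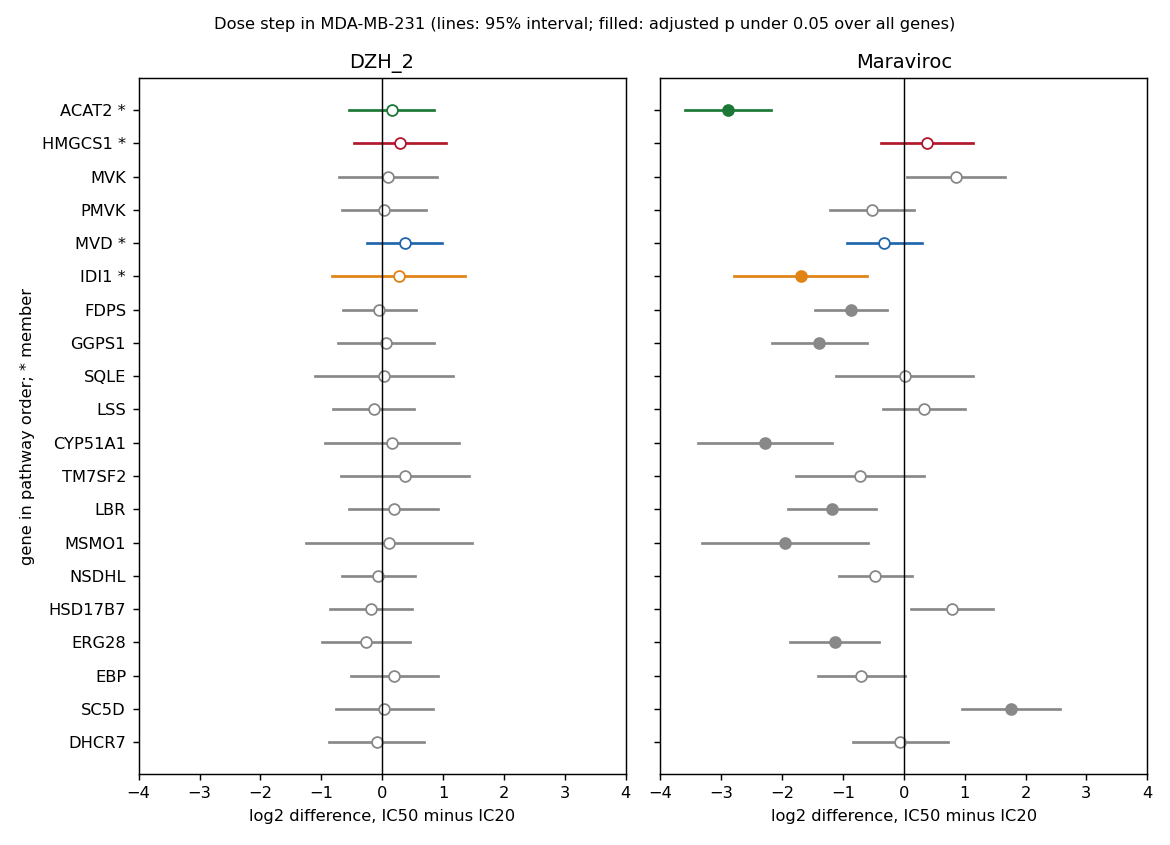
Log2 difference of IC50 minus IC20 (x axis) for the members (coloured, marked *) and the other measured genes of cholesterol synthesis (grey) in pathway order (y axis), with DZH_2 left and Maraviroc right; lines are 95% intervals and filled points passed the test. ACAT2 at -2.89 and IDI1 at -1.70 are the members filled with Maraviroc, and no point is filled with DZH_2.

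The solvents themselves were compared because each compound had its own. Ethanol minus DMSO was 0.58 for ACAT2 (limma adjusted p = 0.719), 0.41 for HMGCS1 (0.846), 0.70 for MVD (0.617) and 0.59 for IDI1 (0.851). None of the 4 was called, nor was any of all genes (0%), with 1 member (MVD) and 1352 genes at an unadjusted p under 0.05. With 1 array left out the HMGCS1 value ran from -0.07 to 0.89 and the IDI1 value from -0.17 to 1.35, so neither direction is settled. The ACAT2 value stayed at 0.34 to 0.83 and the MVD value at 0.43 to 0.96, higher in ethanol throughout. The ethanol means differed from the single untreated array by 0.41 for ACAT2, 0.32 for HMGCS1, 0.61 for MVD and 0.69 for IDI1, but ethanol replicate 1 was below the untreated array for HMGCS1 and IDI1. For DMSO the same differences of means were -0.17, -0.09, -0.08 and 0.10.

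Against the untreated array, the Maraviroc IC20 means were higher by 1.93 for ACAT2, 2.22 for HMGCS1, 1.34 for MVD and 1.98 for IDI1. At Maraviroc IC50 they were 2.59 for HMGCS1, 1.01 for MVD and 0.28 for IDI1, and -0.95 for ACAT2. So the low ACAT2 signal at IC50 was below both ethanol and untreated cells, while IDI1 was below the ethanol mean and above the untreated value. With 1 untreated array these have no replicate check, and a match in culture time is not known.

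The arrays titled MCF10 also had higher signals of all 4 genes with DZH_2, with 1 array per group and no test. HMGCS1 read 13.33 at IC20 and 13.79 at IC50, against 5.44 in DMSO and 6.59 untreated. IDI1 read 12.91 and 12.74, against 5.80 in DMSO and 7.70 untreated. In the DMSO array both genes were below that array's floor of 6.21, so only a lower bound can be given: relative to that floor HMGCS1 was at least 7.12 higher at IC20 and 7.58 at IC50, and IDI1 at least 6.70 and 6.53.

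ACAT2 read 11.91 and 11.13, against 7.46 in DMSO and 6.51 untreated. MVD read 11.97 and 12.73, against 7.89 in DMSO and 7.95 untreated. Both genes were above the floor in every control array, with differences from DMSO of 4.45 and 3.66 for ACAT2 and 4.08 and 4.84 for MVD.

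The DMSO and untreated arrays titled MCF10 differed from each other by 0.95 for ACAT2 and -0.06 for MVD (DMSO minus untreated), while HMGCS1 and IDI1 were above the floor in the untreated array and below it in the DMSO array. Against the untreated array the DZH_2 differences were 6.74 and 7.20 for HMGCS1, 5.21 and 5.04 for IDI1, 5.40 and 4.61 for ACAT2 and 4.02 and 4.77 for MVD. All 4 members were at least 1 higher with both doses than in both control arrays, which held for 402 genes, or 2.27% of all. The median of the members over DMSO, with HMGCS1 and IDI1 at their lower bounds, was 5.57 at IC20 and 5.68 at IC50, and 5.78 and 5.89 with the signals as deposited. Markers moved too on these arrays: S100A2 read 11.25 and 10.74 with DZH_2, against 14.78 in DMSO. KRT5 read 5.81 and 5.69 with DZH_2, both below the floor, against 8.92 in DMSO. The part of this shift in the pathway values was not tested.

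Across all 11 groups, HMGCS1 was highest in the DZH_2 arrays titled MCF10, then in DZH_2-treated MDA-MB-231 (12.79 at IC50 and 12.50 at IC20), then with Maraviroc (10.71 at IC50 and 10.34 at IC20). The Maraviroc doses overlapped, and so did ethanol, untreated and DMSO cells at 8.45, 8.12 and 8.03. IDI1 had its highest mean in MDA-MB-231 with DZH_2 at IC50 (13.17), where its arrays overlapped those of DZH_2 IC20 (12.90), and close to the treated arrays titled MCF10. Maraviroc IC20 followed at 12.03. Below it, Maraviroc IC50 at 10.33, ethanol at 10.73, DMSO at 10.14 and untreated cells at 10.05 overlapped in their arrays.

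ACAT2 ran differently, with Maraviroc IC20 (11.41) above DZH_2 IC50 (10.75) and IC20 (10.59), whose arrays overlapped. Ethanol (9.88), untreated (9.47) and DMSO (9.30) followed, with the untreated value inside the range of the DMSO arrays, and Maraviroc IC50 (8.52) was lowest in MDA-MB-231. MVD was ordered DZH_2 IC50 (9.37), DZH_2 IC20 (8.72 and 9.28), Maraviroc IC20 (8.76), Maraviroc IC50 (8.44), ethanol (8.04), untreated (7.43) and DMSO (7.35), with the arrays of DZH_2 IC20 spanning Maraviroc IC20. Its treated arrays titled MCF10 were far higher than any MDA-MB-231 array, while its control arrays titled MCF10 lay between the ethanol and untreated levels of MDA-MB-231.

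To find genes of like pattern, each gene's group means were centred within each line and compared over the 11 groups by the root mean square difference, where 0 means an identical profile. These groups share arrays and treatments, so the values describe likeness only. Nearest to the mean profile of the 4 members were MSMO1 (0.51), CYP51A1 (0.55) and DHCR7 (0.61), enzymes of the steps after lanosterol, followed by SCD (0.66), ELOVL6 (0.70), FDPS (0.72), ACSS2 (0.76) and SQLE (0.77). SCD, the stearoyl-CoA desaturase, and ELOVL6, a fatty acid elongase, belong to fatty acid synthesis, and ACSS2 makes acetyl-CoA from acetate. Signals entered as deposited, and HMGCS1, IDI1 and CYP51A1 were below the floor on the DMSO array titled MCF10. Distances that include these genes are therefore not exact.

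Among themselves the members were less alike than some were to outside genes. HMGCS1 and ACAT2 were farthest apart (1.68) and ACAT2 and MVD closest (0.71). The gene nearest to MVD was SCD (0.29), the one nearest to ACAT2 was FDPS (0.57), and the one nearest to IDI1 was MSMO1 (0.58). HMGCS1 had IDI1 as its nearest gene, at 0.92, the largest nearest distance of the 4. The distance is not scaled to how far a gene swings over the groups, and wider swings can give larger distances. The root mean square swing, with signals as deposited, was 2.73 for HMGCS1, 2.12 for IDI1, 1.57 for ACAT2 and 1.46 for MVD. These distances therefore do not rank how well the shapes of the profiles match.

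**Figure D4:**
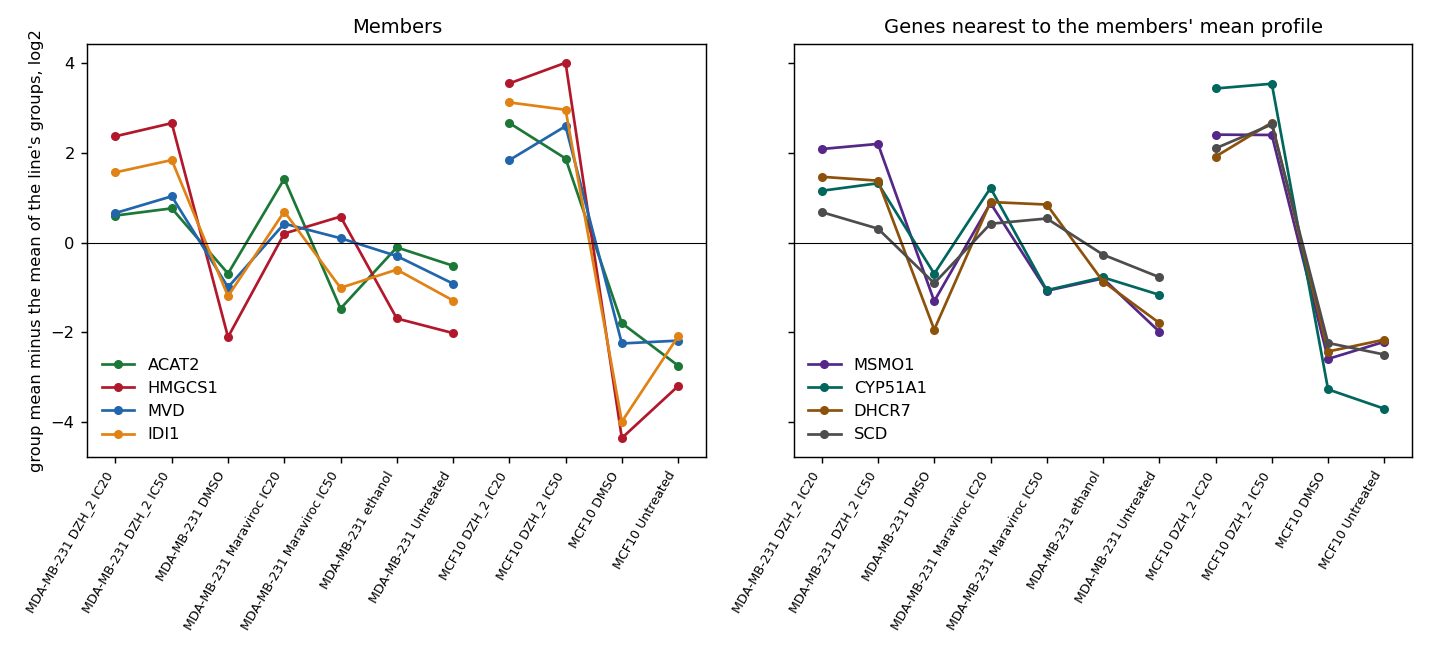
Group mean minus the mean of the line's groups, on the log2 scale (y axis), over the 11 groups (x axis), for the 4 members on the left and 4 of the genes nearest to their mean profile on the right; lines join unordered groups only to guide the eye. The members and MSMO1, CYP51A1, DHCR7 and SCD are high in DZH_2 groups of both lines, while ACAT2, IDI1, MSMO1 and CYP51A1 are below 0 at Maraviroc IC50. On the DMSO array titled MCF10 the signals of HMGCS1, IDI1 and CYP51A1 were below the floor, so those points have no exact height.

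The rest of the pathway was taken from a list of mevalonate, isoprenoid and sterol synthesis genes, of which 16 besides the members were measured. This list, and those of regulators, transport, product-use and ketone genes below, were chosen with earlier results of these data known. Their limma calls are therefore no independent support for the members. With DZH_2 at IC20, 5 of 16 rose and 0 fell by limma, and with IC50 6 rose and 0 fell, while 0.871% and 1.57% of all genes were called, 0.435% and 0.582% higher. DHCR7, which makes cholesterol in the last reduction of one branch, rose by 3.40 ± 0.36 at IC20 (limma adjusted p = 0.00239; adjusted p also in the brackets that follow). MSMO1, the sterol methyl oxidase, rose by 3.38 ± 0.63 (0.0331), HSD17B7, the sterol ketoreductase, by 2.17 ± 0.31 (0.0118), LSS, lanosterol synthase, by 1.83 ± 0.31 (0.0243) and FDPS, farnesyl diphosphate synthase, by 1.78 ± 0.28 (0.0156). At IC50 MVK, mevalonate kinase, joined them at 1.70 ± 0.37 (0.0427).

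The median over the 16 was 1.58 at IC20 and 1.69 at IC50, so HMGCS1 and IDI1 were above the typical pathway gene, MVD was near it and ACAT2 slightly below. PMVK, the kinase directly before MVD, had differences of -0.30 ± 0.32 and -0.27 ± 0.32, neither called. GGPS1, which makes the longer geranylgeranyl chain, had 0.06 and 0.12, also not called. These counts lean on the DMSO arrays. Without DMSO replicate 1 they were 1 at IC20 and 0 at IC50, and without DMSO replicate 2 they were 0 at both. Without DZH_2 IC20 replicate 1 or 2 the IC20 count was 3 or 1.

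With Maraviroc at IC20, limma called 0 of the 16 and 0% of all genes. At an unadjusted p under 0.05 there were 7 of the 16, all higher, and 309 of all genes. In 13 of the 16 both arrays lay above both ethanol arrays, as in 15.2% of all genes. The median was 0.68, beside -0.0090 over all genes, and CYP51A1 had the highest value at 1.99 ± 0.51. At Maraviroc IC50, 5 rose (SC5D by 2.59 ± 0.37, DHCR7 by 1.71 ± 0.36, HSD17B7 by 1.51 ± 0.31, MVK by 1.31 ± 0.37 and LSS by 1.00 ± 0.31) and GGPS1 fell, where 27% of all genes were called, 12% higher and 15% lower. GGPS1 was below the floor at IC50, so the size of its change is not given. Without ethanol replicate 1 the count of 6 was 2.

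The dose step of Maraviroc was mixed over the rest of the pathway, as it was over the members. SC5D, the sterol desaturase, rose by 1.76 ± 0.37 at IC50 over IC20 (limma adjusted p = 0.00355), while 6 of the 16 fell: CYP51A1, the lanosterol demethylase, by 2.28 (SE 0.51, 0.00527), MSMO1 by 1.95, LBR by 1.18, ERG28 by 1.14, FDPS by 0.87, and GGPS1 to below the floor. Limma called 26.7% of all genes in this step, 14.8% of them all as lower. Of the 20 measured pathway genes ACAT2 had the lowest step. DHCR7 stood at -0.06 ± 0.36, with means of 13.07 at IC50 and 13.13 at IC20. No pathway gene was called in the DZH_2 dose step.

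**Figure D5:**
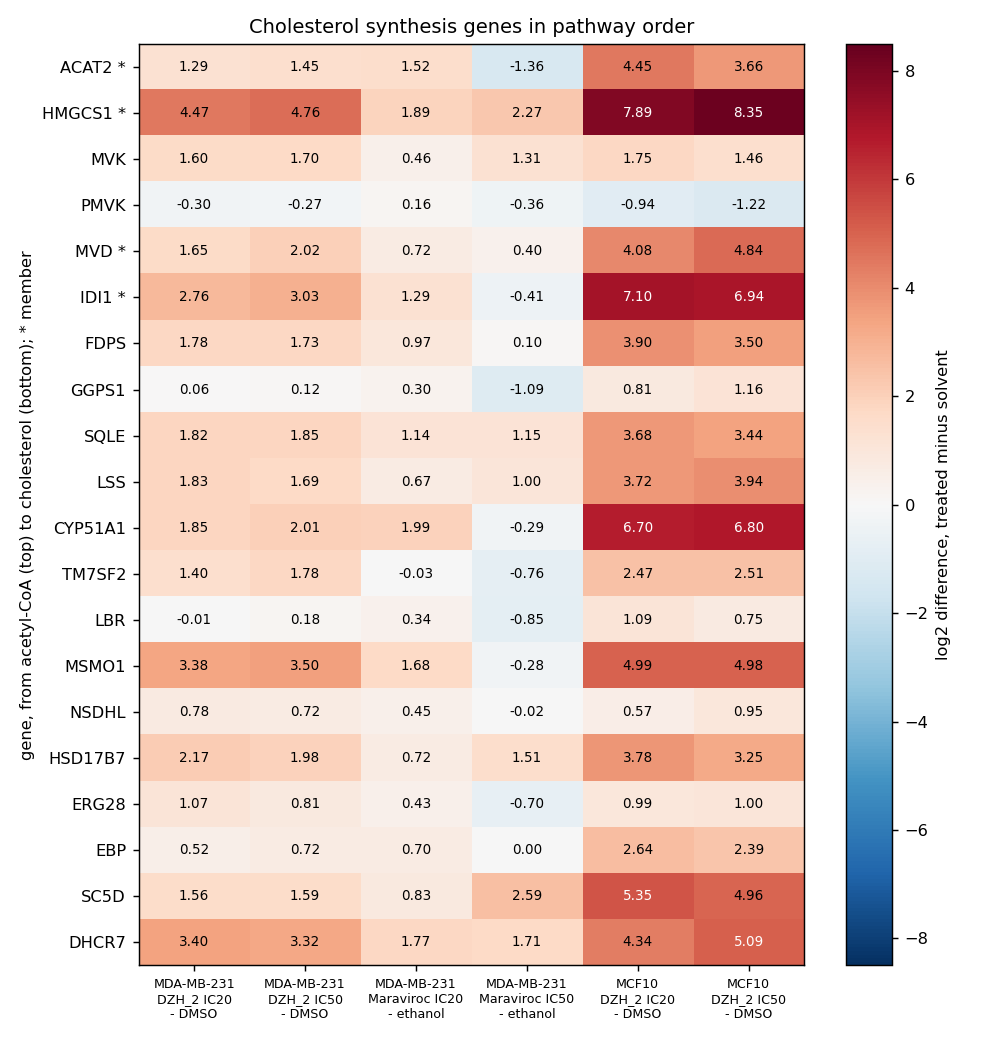
Log2 difference of treated minus solvent cells (colour and printed values) for 20 genes of cholesterol synthesis in pathway order (y axis; * marks the members) in 6 comparisons (x axis). HMGCS1 and IDI1 carry the darkest red of the early steps with DZH_2 in MDA-MB-231, PMVK stays near or below 0, the MCF10 values of HMGCS1, IDI1, CYP51A1 and SC5D rest on a DMSO signal below the floor, and the Maraviroc IC50 column is mixed, with ACAT2 at -1.36.

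On the arrays titled MCF10, 12 of the 16 were at least 1 higher than DMSO with DZH_2 at IC20 and 13 at IC50, where 11.6% and 9.38% of all genes were. CYP51A1 read 12.41 and 12.52, against 5.72 in DMSO, which was below the floor. The median of the 16 was 3.16 at IC20 and 2.88 at IC50, below each of the members. PMVK was lower, at -0.94 and -1.22.

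Enzymes that share chemistry with the members were read for comparison. ACAT1, the mitochondrial thiolase, had -0.68 ± 0.49 and -0.89 ± 0.49 with DZH_2 at IC20 and IC50, neither called, and on the arrays titled MCF10 it was 1.43 and 1.66 above DMSO. IDI2, the second isomerase gene near IDI1 on chromosome 10, was below the floor in every MDA-MB-231 group. IDI2 was called at Maraviroc IC50 (0.82, limma adjusted p = 0.049), but both group means, 4.74 and 3.91, were under the floor.

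Of 6 regulators of the SREBP pathway, 2 rose with DZH_2 at IC20: SREBF2, the gene of SREBP-2, by 1.54 ± 0.28 (limma adjusted p = 0.0331) and INSIG1, a sterol-sensitive retention protein, by 2.88 ± 0.40 (0.00955). Both rose at IC50 too, by 1.48 and 3.27, and SREBF1, the gene of SREBP-1, fell by 1.36. At Maraviroc IC50 INSIG1 rose by 3.42 ± 0.40 and SREBF1 fell by 1.68, while SREBF2 was at 0.06 ± 0.28 and not called. Of 3 sterol transport genes, STARD4 rose by 2.05 and NPC1 by 2.29 with DZH_2 at IC50, and by 2.03 and 3.31 with Maraviroc at IC50. Over all genes limma called 0.871% with DZH_2 at IC20 and 1.57% at IC50, in either direction. With Maraviroc at IC50 it called 12% higher and 15% lower.

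Of 10 genes that use the pathway's products, 1 fell with DZH_2 at IC20 and 2 at IC50, and none rose. Among all genes 0.871% and 1.57% were called at these doses, in either direction. PDSS1, which builds the ubiquinone side chain, fell by 1.25 at IC20 and 1.78 at IC50, and PGGT1B, a geranylgeranyl transferase subunit, fell at IC50 to below the floor. With Maraviroc at IC50 4 fell (PDSS1 by 2.32, ICMT by 1.52, FNTB by 1.24 and COQ2 by 1.05) and NUS1, of dolichol synthesis, rose by 0.90. In that comparison 15% of all genes were called lower and 12% higher, so single calls there are common. Of 5 ketone body and thiolase genes, OXCT1, which returns ketone bodies to acetoacetyl-CoA, fell by 1.36 with DZH_2 at IC50, and with Maraviroc at IC50 to below the floor. With Maraviroc at IC20 limma called none of these regulators, transport, product-use or ketone genes.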

How the data were processed

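Gene expression was measured on 17 Affymetrix arrays, with biotinylated cRNA made from total RNA with the GeneChip WT PLUS kit, per the labels' protocols. Each array has 24351 deposited log2 signals, 1 per probe set. The sources used here do not say how the authors summarised and normalized them, and no further scaling was applied. Precision is limited by how many arrays there are, since arrays count no reads. Of the probe sets, 17709 were paired with 1 gene by Entrez identifier, 3739 others were not paired with 1 single gene and 2903 were controls (612 of them negative). Where a gene had several (20 genes), its brightest probe set on average was kept, which left 17687 genes.

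Groups came from the sample titles. A joint fit of the 12 replicated MDA-MB-231 arrays was made with limma 3.58.1 in R 4.3.3 (lmFit, contrasts.fit, eBayes; 6 residual degrees of freedom), 2-sided, with Benjamini-Hochberg adjustment over all genes and a threshold of 0.05. A single array was compared by value only. A group is below the floor where its mean lies under the 75th percentile of the negative controls. The members and the gene lists were chosen with earlier results of these data known, so differences from solvent are untested for the members. The calls in the lists and in the dose step are not independent of that choice. The members were named in every comparison, the other pathway genes where they passed the threshold (at most 4 by smallest p, or all that a count covers) or mark a step or an extreme, which was chosen after seeing values, and the nearest genes by rank. Promoter windows are RefSeq's. Other normalizations, array weights, fewer or more control arrays, a filter and leaving out each array were tried. The limma fit was tried on simulated data with differences planted in the DZH_2 IC50 arrays, for the comparison with DMSO only.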

Additional observations from a re-analysis of the deposited data

How the results depend on the processing

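With 2 arrays per group, counts of calls depend on single arrays while the size of the members' differences mostly does not. The median difference of the members stayed at 1.95 to 2.41 with DZH_2 IC20, 2.27 to 2.73 with IC50 and 0.97 to 1.75 with Maraviroc IC20 over all alternatives. With Maraviroc IC50, where it was -0.0043, it was 0.24 after quantile normalization, 0.16 after centring each array on its median, 0.38 against all 5 control arrays, and -0.52 to 0.51 when 1 array was left out; centring also moved the median of all genes there to 0.28, against 0.11 as deposited. The other pathway genes called with DZH_2 IC20 (5) were 10 without the Maraviroc IC50 arrays, 9 with array weights, 8 against all 5 control arrays and 0 to 3 with 1 array left out. With IC50 (6) they were 10 without the Maraviroc IC50 arrays, 10 with array weights, 10 with the compared arrays alone and 0 to 1 with 1 array left out. With Maraviroc IC50 (6) they were 2 with the compared arrays alone, 3 with array weights and 2 to 7 with 1 array left out. The members called in the Maraviroc dose step (2) were 1 with array weights, 1 with the compared arrays alone and 1 to 2 with 1 array left out. Fits with fewer arrays have fewer degrees of freedom; otherwise the cause was not tested. Over all genes, calls ranged from 2 to 495 with DZH_2 IC20 (154), 2 to 942 with IC50 (277), 2399 to 6846 with Maraviroc IC50 (4778) and 2632 to 5141 in its dose step (4719). On the arrays titled MCF10 the members' median at IC50, with signals as deposited, was 5.89 over DMSO, 4.91 over the untreated array and 5.81 after median centring. Replicate numbers are shared by the groups, but same-numbered arrays deviated together only weakly (correlations -0.08 to 0.30), so they were not taken as pairs. With the replicate number as a block, 6, 8, 0 and 6 other pathway genes were called with DZH_2 IC20, DZH_2 IC50, Maraviroc IC20 and Maraviroc IC50, and 2, 0 and 0 members in the Maraviroc step, the DZH_2 step and the solvent comparison, and the members' medians of 2.21, 2.53, 1.41 and -0.0043 were as without it. Probes near the negative controls limit HMGCS1 and IDI1 on the DMSO array titled MCF10.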
